A study of Mus musculus with 30 samples.

Results

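The heavy chains of IgM and IgG were read from every probe set whose platform annotation named Ighm, Ighg3, Ighd, Ighg1 or Ighg2b, alone or together with other genes. Of the 45037 probe sets that were no array control, 19 met this rule, and they named 2 of the 5 genes. Of these, 11 named Ighm alone, 4 named Ighg3 alone, 3 named Ighm, Ighg3 and the variable gene Ighv14-2 together, and 1 named Ighm with the variable gene Ighv1-72. No probe set in the annotation used here named Ighd, Ighg1 or Ighg2b, so IgD, IgG1 and IgG2b are not described.

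The data were 30 Affymetrix Mouse Genome 430 2.0 arrays of total salivary gland RNA from female NOD.H-2h4 mice, a strain prone to autoimmune inflammation of thyroid and salivary gland. Anti-CD40L mice had received a single injection of 20 mg/kg of anti-CD40L antibody into the abdominal cavity at 4 weeks of age, and control mice the same dose of a human IgG1 isotype antibody. Glands were taken at week 8, 16 or 24 of age, with 5 arrays for each treatment and age, which the labels call biological replicates. All groups had been injected, and mice without an injection were not analysed here. The sample was the total gland, so fewer cells of a type and less RNA per cell cannot be told apart.

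An antibody is built of paired heavy and light chains, and the constant region of the heavy chain sets its class. A naive B cell carries IgM and IgD on its surface, IgM being encoded by Ighm, the first constant gene of the heavy chain locus on chromosome 12. CD40L on helper T cells binds CD40 on the B cell, and with cytokines it drives germinal centres and switching to genes further along the locus. In the RefSeq annotation of GRCm38.p6 the order is Ighm, Ighd, Ighg3, Ighg1, Ighg2b, Ighg2c, Ighe and Igha. IgG3, encoded by Ighg3, is in mice the subclass often made against antigens that need little T cell help, and IgA, encoded by Igha, is the main class secreted by plasma cells of salivary glands.

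Levels are deposited log2 intensities, on which 1 unit is a factor of 2, and differences are anti-CD40L minus control or later minus earlier age. Group levels are given as mean ± SD and differences as estimate ± SE from the linear model, with n = 5 arrays per group throughout. A probe set was called when its adjusted p was under 0.05 after Benjamini-Hochberg adjustment over the 25093 probe sets tested with limma. Intensities of different probe sets were not set against each other, since each has its own brightness; only their changes were. The suffix of a probe set marks its design: _x_at holds probes that also match other sequences, _s_at is shared between transcripts of different genes, and _a_at covers several transcripts of 1 gene. Heavy chain genes share much sequence, so which class or variable gene a probe set measured is uncertain wherever such a suffix or several gene names occur.

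Some arrays stood apart before any comparison. Amy1, an enzyme made by the parotid gland, spanned 6.58 to 13.70 over the arrays. The mean over the submandibular and sublingual markers had group values of 12.95 to 13.40 and spanned 12.47 to 13.52 over the arrays. Its lowest values, 12.56 and 12.47, were those of anti-CD40L week 24 replicates 1 and 4. Glycam1, a product of lymph node vessels, reached 7.62 in anti-CD40L and 8.91 in control glands at week 8, and 4.78 in anti-CD40L and 8.33 in control glands at week 24. The 3' minus 5' difference of control transcripts, a measure of RNA integrity, averaged 0.37 and 0.57 in anti-CD40L and control glands at week 8, 0.26 and 0.29 at week 16, and 0.20 and 0.41 at week 24. At week 24 its ranges did not overlap, with 0.16 to 0.25 in anti-CD40L and 0.29 to 0.61 in control glands. Treatment and this measure therefore cannot be told apart at that age, and a fit with it as a covariate does not separate them. The 3' minus 5' difference and the Glycam1 level were each added as a covariate. The 5 arrays with the lowest correlation to the others were anti-CD40L week 8 replicates 1 and 3, control week 8 replicates 3 and 4 and control week 24 replicate 1.

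Of the 19 probe sets, 10 lay above the median of their own array in at least 5 of the 30 arrays and were tested. These were 8 naming Ighm alone, 1427503_at for Ighg3 and 1427851_x_at for Ighm with Ighv1-72. A probe set that is high in a single group can pass this filter through that group, and 1427756_x_at, 1425324_x_at, 1427851_x_at and 1425385_a_at passed it through 8, 9, 10 and 12 arrays. Counts over the tested probe sets are therefore a description. The 9 others were 1426196_at, 1427869_at and 1451949_at for Ighm, 1426198_at, 1426199_x_at and 1447998_at for Ighg3, and 1427758_x_at, 1451947_at and 1452538_at for several genes. Their group means lay between 3.33 and 5.26, under the array medians of 5.49 to 5.54, and their treatment differences between -0.51 and 0.25. Without a filter none of the 9 was called for treatment at any age, and 1426196_at was called higher in week 24 than in week 16 controls, by 0.42 (limma, adjusted p = 0.0286).

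At week 8, 4 weeks after the injection, no heavy chain probe set was called in limma, at an adjusted or an unadjusted p under 0.05, out of 10 tested. Over all probe sets 0.0518% were called lower at this age. The median difference of the 10 was -0.28, against 0.01 over all probe sets tested. At week 16, 2 of the 10 were lower after anti-CD40L, 1452535_at and 1427851_x_at, against 0.546% of all probe sets, and the median was -1.18 against 0.02. At week 24 each of the 10 was lower, against 2.47% of all probe sets, with differences from -4.46 to -0.98 and a median of -2.52 against 0.03. That count of 10 was 4 with the 3' minus 5' difference as a covariate, 7 with Glycam1 and 7 when only the groups compared were fitted, with each difference still below 0.

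**Figure D1:**
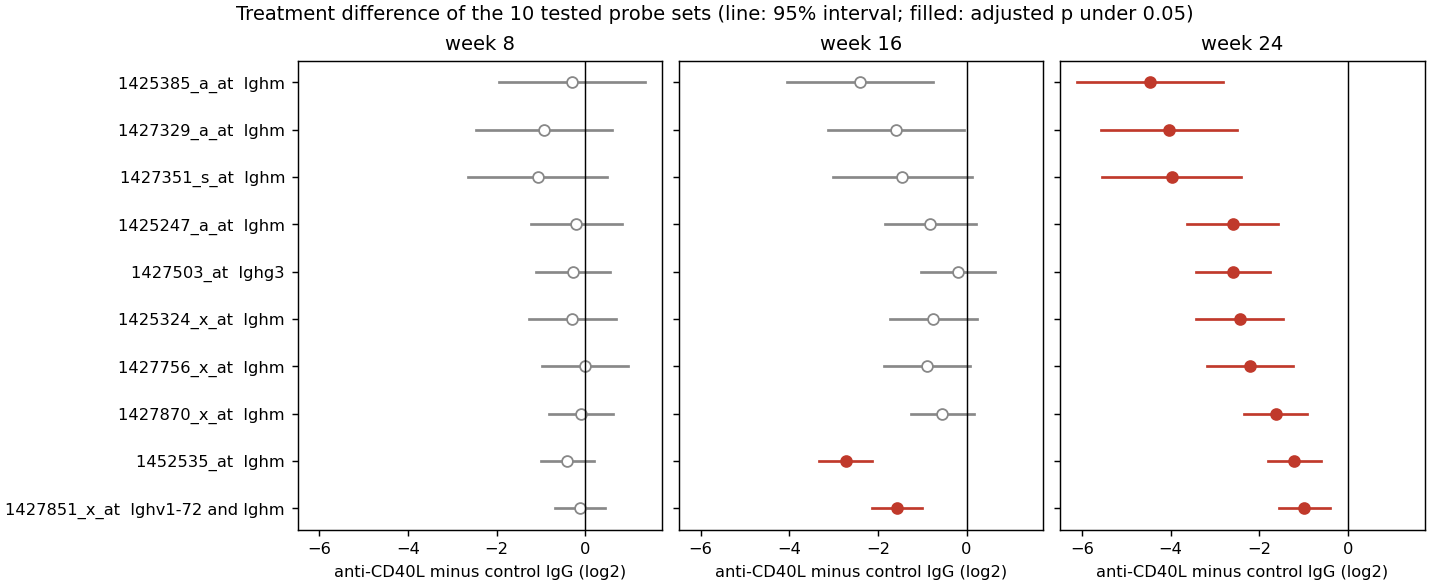
Difference of anti-CD40L minus control IgG on the log2 scale for the 10 tested probe sets, 1 panel per age; points are estimates from 5 arrays per group, lines 95% confidence intervals, and filled red points have an adjusted p under 0.05. The filled points number 0 at week 8, 2 at week 16 and 10 at week 24.

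Overlap between the groups gave a similar count without a model. All 5 anti-CD40L arrays lay below all 5 control arrays for 0 of the 19 probe sets at week 8, 3 at week 16 and 7 at week 24. Among the 10 tested the counts were 0, 2 and 7, and over all tested probe sets this held for 0.697% at week 8, 2.6% at week 16 and 1.59% at week 24. One of the 3 at week 16 was the dim 1427758_x_at, at 4.75 ± 0.14 in anti-CD40L and 5.26 ± 0.27 in control glands.

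Ighm was represented by 1427351_s_at, the brightest of the probe sets that name it alone. At week 24 its levels in the 5 anti-CD40L arrays were 7.76, 11.17, 7.79, 9.61 and 7.60, and in the 5 control arrays 12.44, 13.28, 12.52, 12.19 and 13.39. The groups did not overlap, and 2 of the anti-CD40L arrays stood above the other 3. The means of 8.78 ± 1.56 and 12.76 ± 0.54 differed by -3.98 ± 0.77, which is 15.8-fold lower after anti-CD40L (limma, adjusted p = 0.00435; 95% confidence interval -5.55 to -2.41). The difference stayed between -4.58 and -3.68 when any 1 of the 10 arrays was left out, and each time it was called. With the 3' minus 5' difference as a covariate it was -3.78 and was no longer called (adjusted p = 0.0813); with Glycam1 as a covariate it was -3.58 and was called (adjusted p = 0.0315).

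At the earlier ages single arrays carried most of the Ighm signal. At week 8 the level was 8.03 ± 0.43 in anti-CD40L and 9.11 ± 1.66 in control glands, where replicate 3 reached 11.95 and the other 4 lay between 7.64 and 8.97. At week 16 it was 7.90 ± 0.91 in anti-CD40L and 9.35 ± 1.95 in control glands, where replicate 4 reached 12.52 and the others lay between 7.55 and 9.85. The week 16 array lay within the range of the week 24 controls, and the week 8 array just below it. Neither difference was called, with -1.08 ± 0.77 at week 8 (limma, adjusted p = 0.497) and -1.45 ± 0.77 at week 16 (adjusted p = 0.447), and the intervals, -2.64 to 0.49 and -3.02 to 0.12, leave room for a change in the same direction. Control week 8 replicate 3 had a Glycam1 level of 4.61, and control week 16 replicate 4 one of 6.34, the highest of its group.

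Ighg3 was represented by 1427503_at, which carries no suffix for shared probes. Its levels at week 24 were 6.217, 6.148, 5.998, 5.993 and 6.042 in anti-CD40L arrays, and 8.555, 10.276, 7.608, 7.158 and 9.801 in control arrays. The anti-CD40L arrays lay close together and all below the lowest control. The means of 6.08 ± 0.10 and 8.68 ± 1.35 differed by -2.60 ± 0.41, or 6.06-fold lower after anti-CD40L (limma, adjusted p = 0.000721). It was called with the 3' minus 5' difference as a covariate (-2.66, limma, adjusted p = 0.0107) and with Glycam1 (-2.31, adjusted p = 0.00825). The dim 1426198_at, 1426199_x_at and 1447998_at, which also name Ighg3 alone, differed by 0.11, -0.08 and 0.25 at week 24. None of them was called without a filter, so the Ighg3 results rest on 1427503_at alone.

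Before week 24, Ighg3 was near one level in both treatments. It averaged 6.35 ± 0.33 in anti-CD40L and 6.62 ± 0.72 in control glands at week 8, a difference of -0.28 ± 0.41 (limma, adjusted p = 0.772). At week 16 the levels were 6.05 ± 0.12 in anti-CD40L and 6.24 ± 0.65 in control glands, a difference of -0.19 ± 0.41 (adjusted p = 0.922). The interval at week 16, -1.02 to 0.64, does not reach the estimate at week 24. Single control arrays were again the highest, replicate 3 at week 8 with 7.81 and replicate 4 at week 16 with 7.26, the same 2 arrays as for Ighm.

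**Figure D2:**
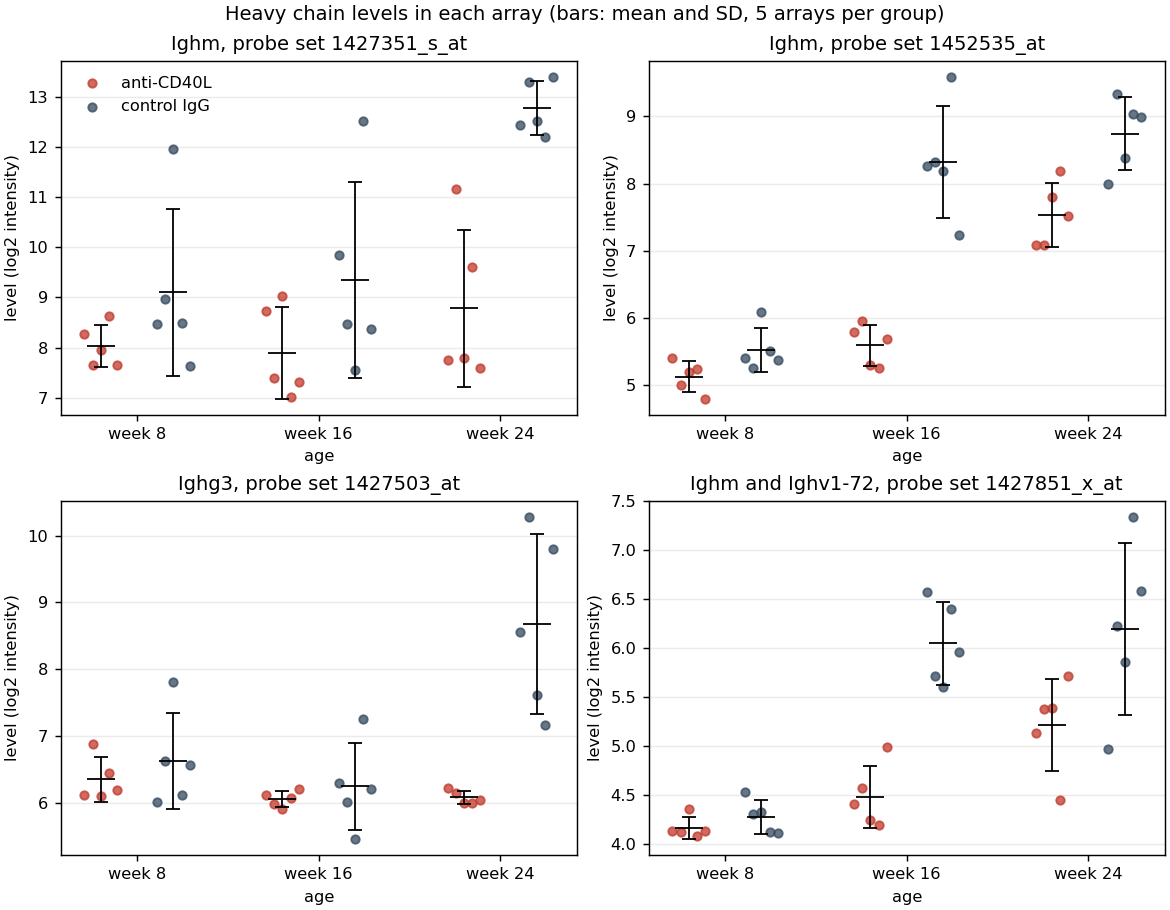
Level of 4 probe sets (log2 intensity, vertical axis) in each array by age (horizontal axis), anti-CD40L in red to the left of control IgG in dark grey; points are single arrays, and black bars the mean and SD of 5 arrays. Probe sets 1427351_s_at and 1427503_at were high in all controls only at week 24, whereas 1452535_at and 1427851_x_at were already high in all controls at week 16.

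The probe set 1452535_at, also annotated to Ighm, followed another course. At week 16 its levels were 5.79, 5.95, 5.30, 5.26 and 5.69 in anti-CD40L arrays, and 8.27, 8.33, 8.19, 9.59 and 7.24 in control arrays. All 5 anti-CD40L arrays lay below the lowest control by more than 1 unit. The means of 5.60 ± 0.30 and 8.32 ± 0.83 differed by -2.72 ± 0.29, or 6.61-fold lower after anti-CD40L (limma, adjusted p = 2.61e-06). At week 24 the means were 7.53 ± 0.47 in anti-CD40L and 8.75 ± 0.54 in control glands, a smaller difference of -1.21 ± 0.29 (adjusted p = 0.0148), which was not called with the 3' minus 5' difference (adjusted p = 0.146) or Glycam1 (adjusted p = 0.0659) as a covariate. At week 24, 4 of the 5 anti-CD40L arrays lay below all controls and replicate 4, at 8.18, lay above the lowest control.

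The probe set 1427851_x_at, annotated to Ighm and Ighv1-72, had a like course. Its levels at week 16 were 4.41, 4.57, 4.24, 4.19 and 4.99 in anti-CD40L arrays, and 6.57, 5.72, 5.60, 6.40 and 5.96 in control arrays. The groups did not overlap and differed by -1.57 ± 0.28, or 2.97-fold lower after anti-CD40L (limma, adjusted p = 0.00211). At week 24 the means were 5.22 ± 0.47 in anti-CD40L and 6.20 ± 0.88 in control glands and the groups overlapped, with a difference of -0.98 ± 0.28 (adjusted p = 0.031). That call was lost without 4 of the 10 arrays taken singly, with an adjusted p of up to 0.105 without anti-CD40L replicate 4. It was also lost with the 3' minus 5' difference (adjusted p = 0.182) and with Glycam1 (adjusted p = 0.0616) as a covariate.

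The remaining Ighm probe sets were lower after anti-CD40L mainly at week 24, with their highest arrays in different places. The probe set 1427329_a_at moved with 1427351_s_at over the 30 arrays (Pearson's r = 0.996, Spearman's rho = 0.983) and differed by -4.03 ± 0.75 at week 24 (limma, adjusted p = 0.0034; 0.0597 with the 3' minus 5' difference as a covariate). The probe set 1425385_a_at had 5.12, 8.50, 5.03, 5.03 and 5.05 in anti-CD40L arrays and 10.54, 11.36, 9.51, 7.88 and 11.74 in control arrays at week 24. Replicate 2 of the anti-CD40L group thus stood within the control range and the other 4 near the level of week 8. Its difference was the largest among the tested heavy chain probe sets, at -4.46 ± 0.81 (adjusted p = 0.00256; 0.0605 with that covariate). At week 16 it was high in control replicates 1 and 4, with 9.84 and 10.29, and between 5.27 and 5.84 in the other 3 controls.

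The probe sets 1425247_a_at, 1425324_x_at and 1427756_x_at formed a group whose pairwise correlations were 0.95 to 0.98 over the arrays. They were lower by 2.60 ± 0.50, 2.44 ± 0.48 and 2.22 ± 0.47 in anti-CD40L than in control glands at week 24 (limma, adjusted p = 0.00436, 0.00502 and 0.00807). With the 3' minus 5' difference as a covariate these 3 remained called, and with Glycam1 the last was not (adjusted p = 0.0514). In this group the highest anti-CD40L array at week 24 was replicate 3, at 7.23, 5.90 and 5.97, and not replicate 2 as for the probe sets above. Control week 16 replicate 4 was again far above its group, at 9.12, 8.24 and 8.20. The last probe set, 1427870_x_at, had 6.27, 8.32, 8.68, 6.44 and 8.53 in anti-CD40L and 8.70, 9.72, 9.08, 9.07 and 9.81 in control arrays at week 24. Its 2 lowest values, in replicates 1 and 4, lay below every array of the earlier ages. The difference was -1.63 ± 0.35 (limma, adjusted p = 0.00804, or 0.0756 with the 3' minus 5' difference as a covariate). In replicates 1 and 4 the mean over the submandibular and sublingual markers was 12.56 and 12.47. It was 13.07, 13.30 and 13.37 in the other anti-CD40L arrays of that age and 13.05 to 13.28 in its controls. The part of gland composition in this difference was not tested.

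**Figure D3:**
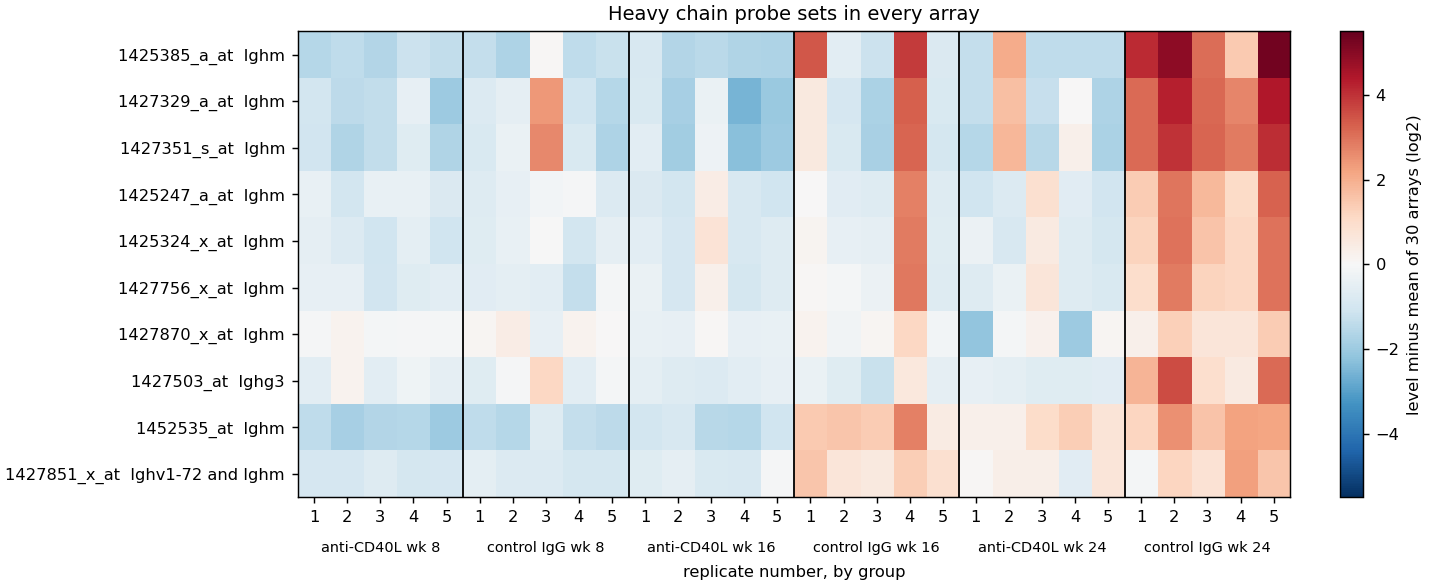
Level of the 10 tested probe sets (vertical) in every array (horizontal, by group and replicate number), as the log2 difference from the probe set's own mean over 30 arrays; red is above and blue below that mean. Control week 24 arrays are red in most probe sets, control week 16 replicate 4 resembles them, and only 1452535_at and 1427851_x_at are red in all control week 16 arrays.

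Changes with age within the controls rest on the control arrays that also enter the treatment differences, so they are no independent support for these. From week 8 to week 16, 3 of the 10 probe sets were called higher, against 30.6% of all probe sets, so the count itself is no result. They were 1452535_at (2.79 ± 0.29), 1427851_x_at (1.77 ± 0.28) and 1425385_a_at (2.06 ± 0.81, limma, adjusted p = 0.0375), the last without a call when any of 6 arrays was left out. From week 16 to week 24, 7 of the 10 were called higher, against 3.65% of all probe sets. Among them Ighm rose by 3.41 ± 0.77, with 12.76 in week 24 and 9.35 in week 16 controls (adjusted p = 0.00637), and Ighg3 by 2.44 ± 0.41, with 8.68 in week 24 and 6.24 in week 16 controls (adjusted p = 0.000812). The 3 others were 1452535_at (0.42 ± 0.29, adjusted p = 0.346), 1427851_x_at (0.15 ± 0.28, adjusted p = 0.76) and 1427870_x_at (0.64 ± 0.35, adjusted p = 0.223).

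The count of 7 fell to 3 when only the 10 arrays compared were fitted, to between 3 and 7 when 1 array was left out, with 3 reached without control week 16 replicate 2 or 5 and 4 without control week 16 replicate 3 or week 24 replicate 5, and to 4 with Glycam1 as a covariate. Ighm 1427351_s_at and Ighg3 stayed called in each of these. Between week 8 and week 24, 9 of the 10 were called higher in controls, against 9.07% of all probe sets, the exception being 1427870_x_at (0.80 ± 0.35, limma, adjusted p = 0.121).

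In anti-CD40L mice the changes with age were as follows. From week 8 to week 16 none of the 10 was called in limma, nor had an unadjusted p under 0.05, while 25.7% of all probe sets were called higher. From week 8 to week 24, 1452535_at rose by 2.41 ± 0.29 (adjusted p = 8.76e-06) and 1427851_x_at by 1.05 ± 0.28 (adjusted p = 0.00997), 2 of 10 against 16.6% of all probe sets. From week 16 to week 24 only 1452535_at was called among the 10, at 1.93 ± 0.29 (adjusted p = 0.000392), against 1.78% of all probe sets. Ighm 1427351_s_at changed by 0.88 ± 0.77 in that interval (adjusted p = 0.608) and Ighg3 by 0.03 ± 0.41 (adjusted p = 0.985).

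Ordered by mean level, Ighm 1427351_s_at was highest in week 24 controls, followed by week 16 controls, week 8 controls, week 24 anti-CD40L, week 8 anti-CD40L and week 16 anti-CD40L. The step of 3.41 below week 24 controls exceeded the larger SD of the 2 groups, and none of the other 4 steps did. Ighg3 had the same top group, with a step of 2.06, and its other 4 steps, of 0.03 to 0.28, were all within the SD. For 1452535_at the largest step, 1.93, lay between week 24 and week 16 anti-CD40L.

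Whether the treatment effect itself changed with age was tested as an interaction. From week 8 to week 16 the effect on 1452535_at became lower by -2.32 ± 0.41 (limma, adjusted p = 0.0288), 1 of 10 against 0.0319% of all probe sets. From week 16 to week 24 the effect on Ighg3 1427503_at became lower by -2.41 ± 0.58 (adjusted p = 0.0419), 1 of 10 against 0.351% of all probe sets. Both calls were fragile. The first was lost without 5 of 20 arrays taken singly, with an adjusted p of up to 0.0762, and with the 3' minus 5' difference as a covariate; the second was lost without 15 of 20, with an adjusted p of up to 0.085, and with that covariate, with Glycam1, with no filter and with the replicate number as a block.

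For Ighm 1427351_s_at the change of the effect from week 16 to week 24 was -2.53 ± 1.08 (limma, adjusted p = 0.25). From week 8 to week 24 no heavy chain probe set was called in limma, against 0.012% of all probe sets lower, although 9 of 10 had an unadjusted p under 0.05. Such an unadjusted p was found for 1365 of all 25093 probe sets tested. For 1452535_at the effect was -2.72 at week 16 and -1.21 at week 24, and its change of 1.51 ± 0.41 was not called (adjusted p = 0.075). The effect on Igha changed by 1.52 ± 0.38 (adjusted p = 0.0486).

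The pair of Ighm probe sets with unlike courses was compared after its values were seen, as the difference of 1452535_at minus 1427351_s_at within each array. In controls this difference was -4.02 ± 0.52 at week 24 and -1.03 ± 1.37 at week 16, with all 5 week 24 arrays below all week 16 arrays. The change of -2.99 had an exact two-sided permutation p of 0.00794, the smallest that 5 against 5 can give, and an adjusted p of 0.0556 over the 7 comparisons made. At week 24 the difference was -1.25 ± 1.68 in anti-CD40L and -4.02 ± 0.52 in control glands (exact permutation, p = 0.0238, adjusted p = 0.0556). No comparison of this family passed the adjustment.

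**Figure D4:**
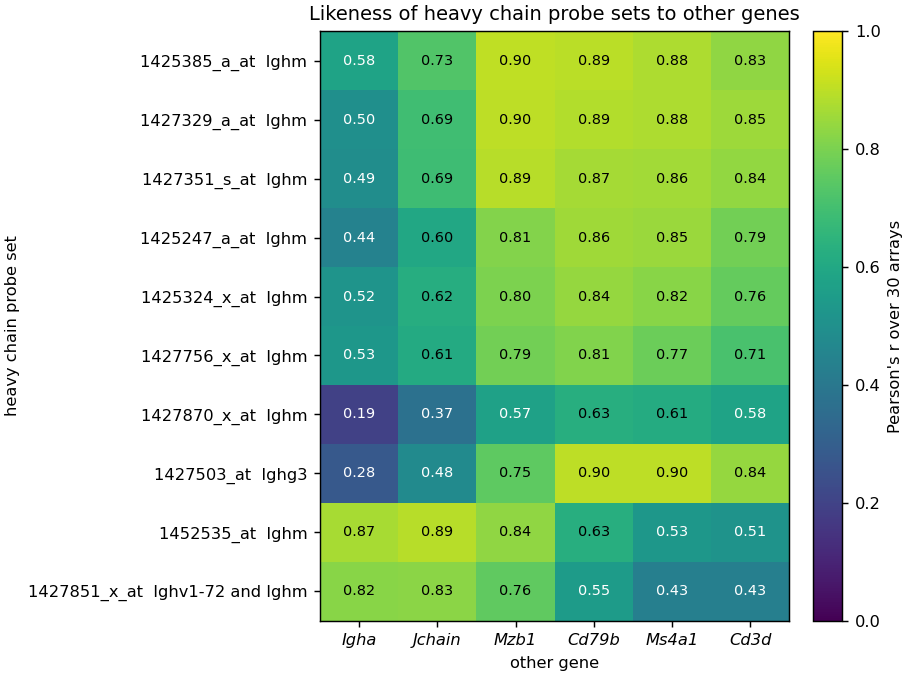
Pearson's r over the 30 arrays between each tested heavy chain probe set (rows) and 6 other genes (columns), with the value in each field. The 2 probe sets at the bottom have their higher values with Igha and Jchain, whereas Ighg3 has 0.90 with Cd79b and Ms4a1 and 0.28 with Igha.

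Over the 30 arrays, which share the 6 groups, 1452535_at correlated with Igha at r = 0.87 and with Jchain, which links IgA or IgM units into polymers, at r = 0.89. The values of 1427851_x_at were 0.82 and 0.83. Ighm 1427351_s_at had 0.49 with Igha and 0.69 with Jchain, and 0.89 with Mzb1, a chaperone of antibody-secreting cells. The values with Mzb1 were 0.84 for 1452535_at and 0.76 for 1427851_x_at. After the group means were subtracted, the correlation of 1452535_at with Igha was 0.15, and that of Ighm 1427351_s_at with Mzb1 was 0.82. The order for Jchain was then the other way, with 0.59 for 1427351_s_at, 0.33 for 1452535_at and 0.23 for 1427851_x_at.

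Of all tested genes, those most like Ighm over the 30 arrays were Cxcr3 (r = 0.90), a chemokine receptor of activated lymphocytes, Coro1a, Mzb1, Glipr1 and Plbd1 (r = 0.89 for each). Those most like Ighg3 were Il7r (r = 0.91), a receptor of lymphocytes, the B cell genes Cd79b (0.90), Ms4a1 (0.90) and Bank1 (0.89), and H2-DMb2 (0.89). After subtraction of group means, Ighm was most like Klra17 (0.88), H2-Eb1, H2-Ab1, Cxcr3 and Plbd1 (0.83 to 0.85), and Ighg3 most like Ets1, Ripor2, Gimap4, Il7r and Myo1g (0.83 to 0.84). These are descriptions over arrays and carry no test.

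The difference between genes within an array was used to see whether 1 heavy chain changed more than another. Of 15 such tests, 5 pairs at 3 ages, 3 passed the adjustment. At week 24 Ighm minus Igha was -4.60, -2.02, -5.45, -3.17 and -5.29 in anti-CD40L arrays, and -0.58, -0.11, -0.93, -1.41 and -0.15 in control arrays. All 5 anti-CD40L arrays lay below all controls. Ighm as read by 1427351_s_at was thus further reduced than Igha, by 3.47 (exact two-sided permutation test, p = 0.00794, adjusted p = 0.0397). Among tested probe sets naming Ighm alone, treatment differences at week 24 ran from -4.46 for 1425385_a_at to -1.21 for 1452535_at. No other single Ighm probe set was compared with Igha in this way, so the result holds for 1427351_s_at only. Igha itself had 12.89 ± 0.35 in anti-CD40L and 13.40 ± 0.22 in control glands at week 24, a difference of -0.51 ± 0.27 (limma, adjusted p = 0.198). Igha lay near the top of the scale, where the highest value was 14.457. Whether this limited its difference was not tested.

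At week 16 the difference between Ighg3 and Igha went the other way. Ighg3 minus Igha was -5.36 ± 0.36 in anti-CD40L and -7.21 ± 0.55 in control glands, 1.84 higher after anti-CD40L in all 5 arrays (exact permutation test, p = 0.00794, adjusted p = 0.0397). Igha was lower after anti-CD40L at that age, with 11.42 ± 0.42 in anti-CD40L and 13.45 ± 0.20 in control glands. Ighg3 was near one level in both, with 6.05 ± 0.12 in anti-CD40L and 6.24 ± 0.65 in control glands. The pair difference thus came mainly from Igha, and whether Ighg3 could have fallen further from this level was not tested. Ighg3 minus Cd79b, a chain of the B cell receptor complex, was 1.41 ± 0.18 in anti-CD40L and 0.74 ± 0.48 in control glands at week 16, a difference of 0.68 with the same p and adjusted p. Cd79b lay at 4.55 to 4.73 in the anti-CD40L arrays of that age, below the median of every array, so this difference does not show that one gene changed more than the other. At week 24 the last pair had 1.16 ± 0.22 in anti-CD40L and 1.17 ± 0.53 in control glands (exact permutation test, p = 0.96).

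Ighm and Ighg3 could not be told apart in this way. Ighm minus Ighg3 differed between anti-CD40L and control glands by -0.80, -1.26 and -1.38 at weeks 8, 16 and 24 (exact permutation tests, adjusted p = 0.274, 0.223 and 0.223). Single arrays reached the extremes, with 5.02 in anti-CD40L week 24 replicate 2 against 1.55 to 3.61 in the other 4 of its group. When any 1 array of the age was left out, none of the tests at weeks 16 and 24 passed the adjustment. The smallest exact p is larger with 4 arrays in a group, so this loss cannot be read as a weaker difference.

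**Figure D5:**
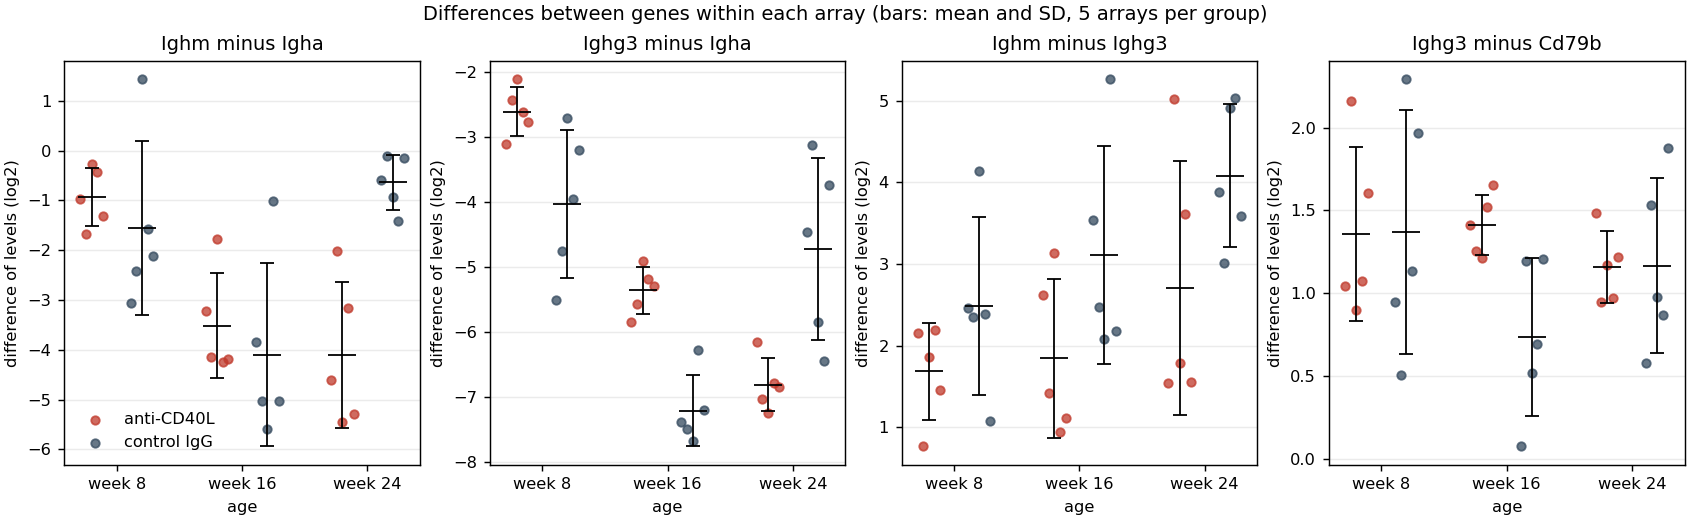
Difference of 2 genes' log2 levels within each array (vertical axis) by age (horizontal axis), anti-CD40L in red to the left of control IgG in dark grey; points are arrays, and bars the mean and SD of 5 arrays. The groups separate for Ighm minus Igha at week 24 and for Ighg3 minus Igha and Ighg3 minus Cd79b at week 16.

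Among partners of the heavy chains, the kappa chain gene was lower at each age. Of 4 tested genes on the light chain list, which included Igll1 and Vpreb3, 1, 3 and 4 were lower after anti-CD40L at weeks 8, 16 and 24. Over all probe sets 0.0518%, 0.546% and 2.47% were called lower at these ages. Igk, the kappa chain, was lower than in controls by 1.33 ± 0.23 at week 8 (limma, adjusted p = 0.0088), by 2.44 ± 0.23 at week 16 and by 1.24 ± 0.23 at week 24. The lambda gene Iglv1 was lower by 3.27 ± 0.49 at week 16 and by 2.83 ± 0.49 at week 24. Igll1, a surrogate light chain gene, and Vpreb3 were lower by 0.77 ± 0.15 and 0.58 ± 0.13 at week 24.

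Of 11 tested genes of the B cell receptor complex and its signalling, 8 were lower after anti-CD40L at week 24, against 2.47% of all probe sets. None was higher, and the list's median was -0.98. In limma none was called at weeks 8 and 16, with 0 and 2 at an unadjusted p under 0.05. The largest differences at week 24 were those of Ms4a1, the B cell surface protein CD20 (-3.70 ± 0.58, adjusted p = 0.000744), and Cd79b (-2.59 ± 0.36, adjusted p = 0.00013). They were followed by Bank1, a scaffold of receptor signalling (-1.77 ± 0.36), and Cd79a, the partner of Cd79b (-1.38 ± 0.22). The timing of these genes was that of Ighg3 and Ighm 1427351_s_at rather than of 1452535_at, as read from the called ages; this likeness was not tested.

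Of 15 tested genes of the secretory programme, 1 was called lower after anti-CD40L at week 8, 3 lower and 2 higher at week 16, and 4 lower at week 24. Over all probe sets 0.0518%, 0.546% and 2.47% were called lower at these ages, and 1.2% higher at week 16. The list's medians were 0.11, -0.12 and -0.06, against 0.01, 0.02 and 0.03 over all probe sets tested. Jchain fell by 2.56 ± 0.34 at week 8, 3.34 ± 0.34 at week 16 and 1.80 ± 0.34 at week 24. Mzb1 fell by 2.32 ± 0.34 at week 16 and 2.62 ± 0.34 at week 24. Tnfrsf17, the plasma cell receptor BCMA, fell by 1.15 ± 0.21, and Irf4, a regulator of plasma cell fate, by 0.81 ± 0.21 at week 24. The 2 that rose at week 16, named after their values were seen, were Edem1 and Fkbp11, which act on proteins in the endoplasmic reticulum (0.57 ± 0.15 and 0.52 ± 0.14).

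Of 12 tested genes of class switching none was called in limma at weeks 8 and 16, with 3 and 1 at an unadjusted p under 0.05. At week 24, 1 was called lower and 1 higher, against 2.47% and 5.45% of all probe sets, and 6 had an unadjusted p under 0.05. Over all 25093 probe sets tested, 3964, 3214 and 7192 had such an unadjusted p at weeks 8, 16 and 24. Batf, a transcription factor needed for switching, was lower than in controls by 0.70 ± 0.15 at week 24 (limma, adjusted p = 0.00852). Bach2, a repressor of the plasma cell programme, was higher by 1.11 ± 0.28 (adjusted p = 0.0183). Of 9 cytokines and receptors that direct switching 3 were lower at week 24, against 2.47% of all probe sets. They were Tnfrsf13b (-1.40 ± 0.21) and Tnfrsf13c (-0.98 ± 0.21), both receptors of B cell survival factors, and the factor Tnfsf13b (-0.49 ± 0.16).

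Of 7 tested germinal centre genes 3 were lower at week 24, against 2.47% of all probe sets. They were the chemokine receptor Cxcr4 (-1.76 ± 0.37), Cd40, the receptor of CD40L (-0.59 ± 0.16), and the costimulatory ligand Icosl (-0.48 ± 0.11). Receptors and transporters that bind the antibody heavy chain were not called. Of 11 tested genes none passed in limma at any age, with 0, 2 and 2 at an unadjusted p under 0.05 at weeks 8, 16 and 24. The Fc receptor Fcgr4 had the largest difference, -0.79 ± 0.26 at week 24 (adjusted p = 0.0578), and Fcer1g, the signalling chain of several Fc receptors, had -0.30 ± 0.24 (adjusted p = 0.417).

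Markers of lymphocytes moved together with the heavy chains at week 24, when 2.47% of all probe sets were called lower. Of 6 tested B cell markers 5 were called lower, and the mean over 8 markers was 5.11 to 5.38 in anti-CD40L and 5.86 to 7.25 in control arrays. Of 5 tested T cell markers 4 were called lower, with a mean of 4.96 to 5.73 in anti-CD40L and 5.84 to 7.62 in control arrays. Of 8 plasma cell markers 4 were called lower, with a mean of 7.99 to 8.74 in anti-CD40L and 8.94 to 9.29 in control arrays. The mean of 6 lymph node and lymphoid stroma markers was 5.16 to 5.70 in anti-CD40L and 5.43 to 6.59 in control arrays, with 1 of 4 tested called. The part of cell numbers and of adjoining lymphoid tissue in the heavy chain differences was not tested.

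Within the week 24 controls both chains were highest in replicates 2 and 5 and lowest in replicate 4. Ighg3 was lowest in replicates 3 and 4, at 7.61 and 7.16, the arrays with the lowest B cell marker means, 6.13 and 5.86, against 6.86 to 7.25 in the other 3. Ighm was 12.52 and 12.19 in those 2 arrays, against 12.44, 13.28 and 13.39 in the others. Glycam1 was 5.01 and 4.60 in replicates 3 and 4, against 8.33, 7.95 and 5.33 in the others, and Ighm in all 5 lay above every anti-CD40L array of that age.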

How the data were processed

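The deposited table held log2 intensities of 45101 probe sets on 30 arrays; the log2 scale was read from the range of 2.757 to 14.457 and from the array medians. Per the submitters' processing notes limma was used (version not given). The method by which probes were summarised and normalized was not given in the sources used here, and values were used as deposited. Genes were taken from the platform annotation, which can be old. Probe sets above the median of their own array in at least 5 arrays were tested, 25093 in all, and 64 array controls were left out. A linear model with 6 group means, over all 30 arrays, was fitted in limma 3.58.1 (R 4.3.3), and 12 contrasts were taken. Differences between genes within an array were compared with exact permutation tests (scipy 1.17.1). A gene with several probe sets naming it alone was represented by the one with the highest mean.

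The members, the gene lists and the comparisons were chosen with earlier results of these data known. All members are named; from each list up to 4 called genes with the largest differences were named, or up to 2 where none was called, and the 5 genes most like Ighm and Ighg3. No sequence is shown, since the tables used here held none for these genes.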

Additional observations from a re-analysis of the deposited data

Results flagged for a closer look

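In 14 of 60 groups of 5 arrays, over the 10 tested probe sets, 1 array lay far from the other 4 by Dixon's criterion, each time as the highest. Chance alone marks about 1 in 20 groups, and probe sets that share probes are not independent. The share over all probe sets was not computed, so the count does not show that these probe sets stand out. Control week 16 replicate 4 accounted for 4 of the 14, with 9.12 in 1425247_a_at, 8.24 in 1425324_x_at, 8.20 in 1427756_x_at and 9.57 in 1427870_x_at. Anti-CD40L week 16 replicate 3 accounted for 3, with 6.76 in 1425247_a_at, 6.14 in 1425324_x_at and 8.47 in 1427870_x_at. Control week 8 replicate 3 was far above its group in 1427329_a_at (10.31) and 1425385_a_at (6.49).

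The other arrays of this kind were anti-CD40L week 24 replicate 2 in 1425385_a_at (8.50) and replicate 3 in 1425247_a_at (7.23), anti-CD40L week 16 replicate 1 in 1425385_a_at (5.56), and anti-CD40L week 8 replicate 3 in 1427851_x_at (4.36) and replicate 2 in 1427870_x_at (8.60). The treatment effect differed between ages by the interaction test for 1452535_at from week 8 to week 16 (-2.32) and for Ighg3 1427503_at from week 16 to week 24 (-2.41). No cause of these values was tested.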

How the results depend on the processing

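Each count of called heavy chain probe sets was recomputed with quantile normalization, centring of arrays, no filter, a filter at the 70th percentile, 1 probe set per gene, array weights, only the groups compared, Amy1, the 3' minus 5' difference or Glycam1 as a covariate, a replicate block, without the 5 arrays of lowest correlation and without each array in turn. The covariate Glycam1 and the omission of the 5 arrays were chosen after seeing the data. No result reversed its direction. Of the values of single probe sets called in the main analysis, 689 kept their call and 83 kept their direction but lost it; the causes were not tested.

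With 1 probe set per gene only 2 probe sets enter, which bounds the counts: 0 at week 16 and 2 at week 24 for treatment; 0 at week 24 against week 8 or 16 in anti-CD40L glands; 0, 2 and 2 for week 16 against 8, week 24 against 8 and week 24 against 16 in controls; and 0 for the change of effect from week 8 to 16. The stricter filter gave 1 for treatment at week 16 and 1 for week 24 against week 8 in anti-CD40L glands. With the 3' minus 5' difference as a covariate treatment at week 24 gave 4 (1425247_a_at, 1425324_x_at, 1427756_x_at and Ighg3), week 24 against week 8 in anti-CD40L glands 1, and the changes of effect to week 16 and from week 16 to week 24 gave 0. With Glycam1, treatment at week 24 gave 7, week 24 against week 16 in controls 4 and the change from week 16 to week 24 gave 0. Fitting only the groups compared gave 2 for week 16 against week 8 in anti-CD40L glands, 3 for week 24 against week 16 in controls, 2 for the change from week 8 to week 16 and 7 for treatment at week 24. Array weights gave 2 for week 24 against week 16 in anti-CD40L glands and 2 for both successive changes of the effect. No filter gave 0 for the later change.

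The replicate numbers did not pair the arrays: deviations from group means correlated at a median of -0.01 over 75 same-numbered pairs and 0.01 over 300 other pairs. With the replicate block the change from week 16 to week 24 gave 0.

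Without 1 array the counts ranged from 3 to 7 for week 24 against week 16 in controls, from 0 to 1 for the change of effect between weeks 8 and 16, likewise 0 to 1 between weeks 8 and 24, and from 0 to 3 between weeks 16 and 24, where 3 were called without control week 16 replicate 4 and 2 without control week 24 replicate 2. Of the tests of pairs of genes, 0, 2 and 1 passed at weeks 8, 16 and 24; with the median over all probe sets of a gene 1, 1 and 4 passed, with only the Ighm and Ighg3 pair 0 at weeks 16 and 24, and without 1 array 0 to 1 at week 8 and 0 at weeks 16 and 24. The smallest exact p is larger with 4 arrays in a group than with 5, so the loss without 1 array cannot be read as a weaker difference. The 5 arrays per group and probes shared between heavy chain genes limit the precision.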
